A study of Mus musculus with 4 samples.

Results

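A set of 33 mouse genes that act in DNA replication and at the G1/S transition was followed in control and HDAC4 KO satellite cells. The genes were taken by name, with no threshold on a measured value, from a list chosen with earlier results of these data known, out of 25583 genes with usable values in the 4 libraries. Of the 33 genes, 31 had a value in every library and all 31 passed the filter of a mean of at least 1 FPKM (mapped fragments corrected for transcript length and library size), among 12191 genes tested. Cdt1 and Gins2 had no value per library and are given at the end of their groups from the authors' pooled values.

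The cells were satellite cells, which lie along muscle fibres and rebuild muscle after injury. They were sorted by surface markers from mice aged 4 weeks (C57BL/6), and RNA was taken after 24 h in growth medium. Mice of both groups were HDAC4fl/fl Pax7CE/+ Cre: the Hdac4 gene was floxed, and a tamoxifen-inducible Cre stood in place of 1 Pax7 allele, so that cells of both groups carried a single functional Pax7 allele and only cells with an active Pax7 promoter could recombine. Control mice received vehicle (control 3 and control 4) and HDAC4 KO mice received tamoxifen (HDAC4 KO 3 and HDAC4 KO 4), so the drug and the deletion cannot be told apart in these libraries. The labels do not say whether the 2 libraries of a group came from separate animals, and p-values therefore measure only the spread between these samples.

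Before S phase, the origin recognition complex, Cdc6 and Cdt1 load rings of the MCM helicase onto DNA, a step called licensing. At the G1/S transition, cyclin-dependent kinases release E2F transcription factors from the retinoblastoma protein family, and E2F switches on many genes of licensing, DNA synthesis and nucleotide supply. Cdc45 and the GINS complex then turn the loaded MCM ring into a moving helicase, and DNA polymerases copy both strands behind it. Quiescent satellite cells hold these genes low and turn them on when they enter the cycle after activation.

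None of the replication and G1/S genes passed the test for a difference between HDAC4 KO and control satellite cells. In limma's test on log2(FPKM + 1), 0 of 31 genes had an adjusted p under 0.05, and the smallest adjusted p was 0.302, for E2f2. Over all genes tested, 2 of 12191 (0.0164%) passed, Gm23937 and the small nucleolar RNA Snord14e, both named after their values were seen. Gm23937 had no percent of the control mean. The control mean of Snord14e came from control 4 (200% of it, beside 1.96e-47% in control 3). At an unadjusted p under 0.05, 1 of the 31 genes was lower in the HDAC4 KO libraries, beside 3.67% of all genes tested, and 0 were higher, beside 10.8% of all genes tested. The log2 difference, HDAC4 KO minus control, had a median of 0.015 over the 31 genes and 0.044 over all genes tested. It was above 0 for 16 of the genes (51.6%, beside 57.5% of all genes tested) and below 0 for 15, and it was within 0.25 of 0 for 29 of them. The number above 0 was 12 with median-ratio scaling and 11 with quantile normalization. With these scalings the median over all genes tested was -0.0079 and -0.0090. For 27 of the 31 genes the whole 95% interval of the difference lay within 0.5 of 0 on the log2 scale. The median gene of the set stood at 98.8% and 101% of the control mean in controls 3 and 4, and at 99.0% and 101% in the HDAC4 KO libraries. The median of all genes tested stood at 103% in both HDAC4 KO libraries.

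The genes were also steady between libraries of one group. The median gap between the 2 controls was 0.079 on the log2 scale for the 31 genes and 0.16 for all genes tested. Between the 2 HDAC4 KO libraries it was 0.064 and 0.12. Both HDAC4 KO libraries lay below both controls for 8 genes (25.8%), beside 17.7% of all genes tested: E2f2, Cdc6, Cdc45, Mcm10, Pcna, Fen1, Tk1 and Uhrf1. Both lay above both controls for 8 genes (25.8%), beside 30.9% of all genes tested: Mcm3, Mcm7, Rfc3, Rfc4, Lig1, Rrm1, Rrm2 and Chaf1a. For the other 15 genes the groups overlapped. This split depended on how the libraries were scaled. Median-ratio scaling gave 13 genes below (41.9%, beside 24.3% of all genes tested) and 4 above (12.9%, beside 24.2%). Quantile normalization gave 12 below (38.7%, beside 24.8%) and 3 above (9.68%, beside 23.7%). The split also moved when 1 library was left out, which leaves fewer values to overlap. Without control 3 it was 13 below (41.9%, beside 29.9% of all genes tested) and 13 above (41.9%, beside 44.5%), and without HDAC4 KO 3 it was 12 below (38.7%, beside 26.9%) and 13 above (41.9%, beside 42.7%).

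**Figure D1:**
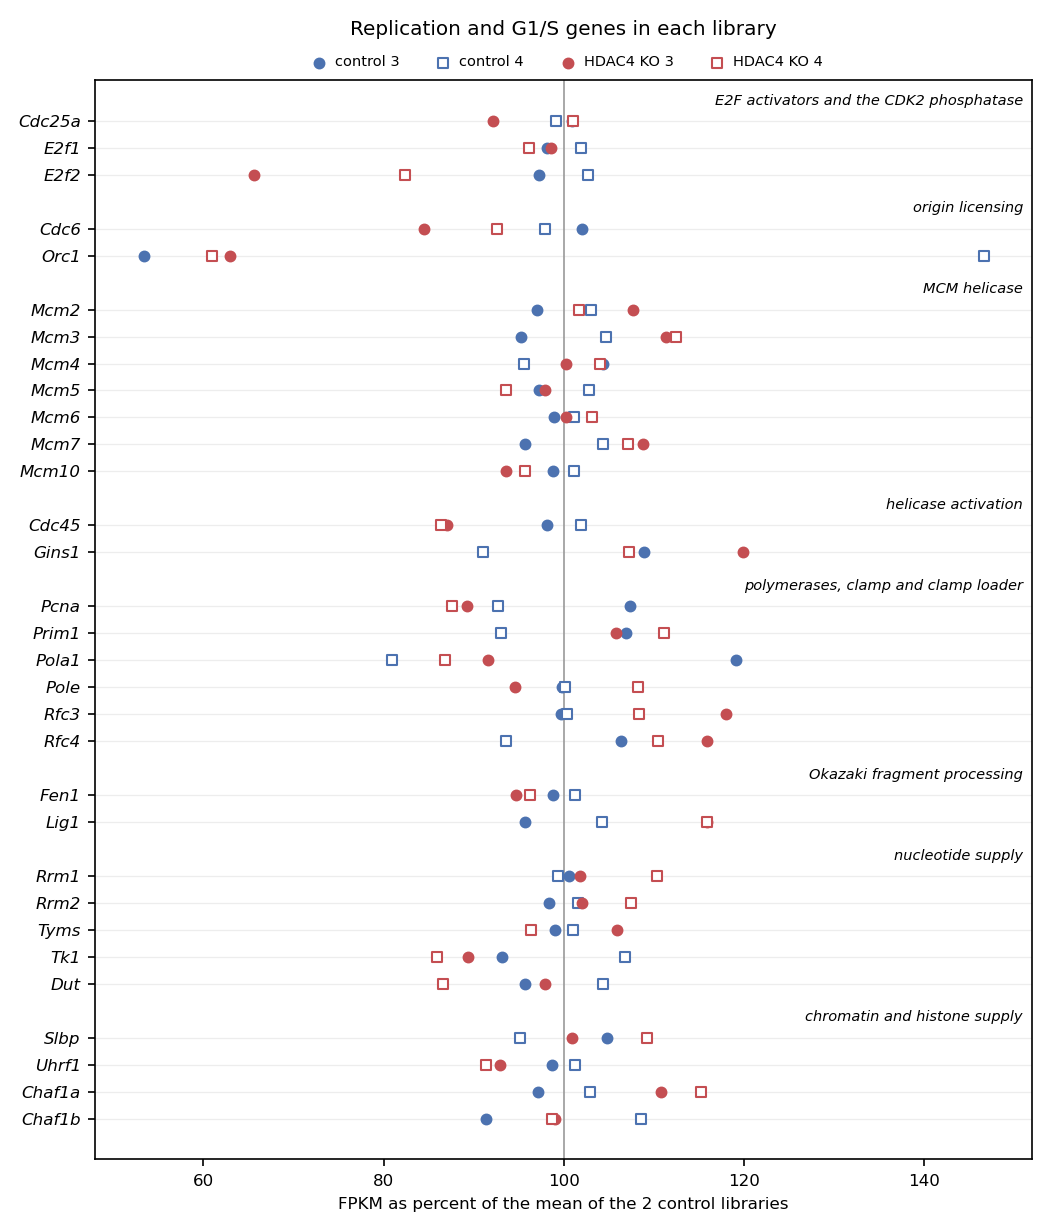
Each row is 1 gene, grouped by role, and each symbol is 1 library, as FPKM in percent of the mean of the 2 controls (vertical line at 100). Most symbols sit close to 100, E2f2 has both HDAC4 KO libraries below 83%, and Orc1 has control 4 alone at 147%.

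Facts of the whole series bear on these values. Between 11864 and 12107 genes reached 1 FPKM per library, and the depth of a library cannot be read from FPKM. Correlations of log2 values between libraries, across genes, lay between 0.950 and 0.964. Hdac4 itself stood at 92.6% and 107% of the control mean in the controls and at 29.0% and 43.3% in HDAC4 KO 3 and 4, a log2 difference of -1.13 ± 0.18 (SE, adjusted p = 0.202 in limma over all genes, 0.0427 over protein-coding genes alone). Of 10 satellite cell and myoblast markers 9 were tested, with Myod1 between 530 and 833 FPKM and Itga7 between 124 and 149 FPKM over the libraries, and Cdh15 was not analysed here. Both HDAC4 KO libraries lay below both controls for Pax7 (86.2% of the control mean in both), Myf5 (80.1% and 81.2%) and Myod1, and above both for Cd34 (170% and 137%), Sdc4 (123% and 157%), Cxcr4 (123% and 138%) and Des (134% and 138%), and 0 of the 9 had an adjusted p under 0.05 in limma, beside 3 higher and 1 lower at an unadjusted p under 0.05. Control 3 stood apart by mature myofibre RNA: the 7 of 9 myofibre markers with a fixed level summed to 1537 FPKM there and to between 88.3 and 187 FPKM in the other libraries, and Myh4 was listed at 0 in control 4 and HDAC4 KO 3. The 3 tested smooth muscle and pericyte markers of 6 (Acta2, Tagln and Cspg4, whose levels are open) and the 4 tested glial markers of 5 each had both HDAC4 KO libraries above both controls, and so did Dcn and Gsn (223% and 216% of the control mean) of 5 tested fibro-adipogenic markers, Cdh5 (205% and 172%) and Tek of 4 endothelial markers, and Cd68 and Lyz2 (299% and 211%) of 4 blood markers. None of these had an adjusted p under 0.05 in limma, and at an unadjusted p under 0.05 there were 3 smooth muscle, 3 glial, 1 fibro-adipogenic, 1 endothelial and 1 blood marker higher. Over all genes tested, both HDAC4 KO libraries lay above both controls for 30.9% and below both for 17.7%. At an unadjusted p under 0.05 in limma, 10.8% of all genes tested were higher and 3.67% lower. The other smooth muscle markers, with a fixed level, summed to at most 2.10 FPKM, and the glial markers with a fixed level to at most 11.5 FPKM. In the other marker lists, the genes with a fixed level, which leave out Gsn, Cdh5 and Lyz2, summed to 4.70 to 13.6 FPKM for fibro-adipogenic progenitors, 2.32 to 4.87 FPKM for endothelium, 3.69 to 32.1 FPKM for blood and at most 0.757 FPKM for tendon. The blood sum of 32.1 FPKM was in control 3, with Hbb-bs at 21.0 and Hba-a1 at 8.10 FPKM, and the other libraries were at most 5.42 FPKM. Ptprc, a marker of white blood cells, was at most 0.028 FPKM. The part of the RNA of all these markers in the results below was not tested. In sorted cells pooled in bulk, fewer cycling cells and less RNA of a gene per cell cannot be told apart.

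Many genes of the set carry an E2F motif next to their start. In RefSeq promoter windows of 300 bases (GRCm38.p6, 250 before to 50 after the start), 29 of the 33 genes had a window, and 13 of these (44.8%) held an E2F motif, searched on both strands as TTTCCCGC, TTTGGCGC, TTTCGCGC or TTTGCCGC, which can overlap each other. The share was 4.98% of 8449 tested genes and 2.60% of all 27025 genes with a window. A CCAAT box (CCAAT on either strand) was in 19 of the 29 (65.5%), beside 43.2% of the tested genes, and a cell cycle homology region (TTTGAA or TTCGAA) in 6 (20.7%), beside 15.8% of the tested genes. Over all genes with a window the shares were 41.1% for the CCAAT box and 21.7% for the cell cycle homology region. The 6 stretches below are shown because they carry E2F words within the 250 bases upstream of the RefSeq start of genes from licensing, helicase and clamp loader, printed on the strand of the gene with the E2F words in capitals.
Cdc6 (chr11:98907983-98908050, plus strand): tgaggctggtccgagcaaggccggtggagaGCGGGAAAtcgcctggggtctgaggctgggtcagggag
Orc1 (chr4:108579397-108579453, plus strand): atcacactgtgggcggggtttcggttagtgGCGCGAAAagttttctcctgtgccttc
Mcm5 (chr8:75109326-75109393, plus strand): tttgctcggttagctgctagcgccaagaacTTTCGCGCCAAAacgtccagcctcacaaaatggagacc
Mcm6 (chr1:128359778-128359845, minus strand): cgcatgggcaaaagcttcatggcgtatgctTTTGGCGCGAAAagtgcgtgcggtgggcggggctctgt
Mcm7 (chr5:138172011-138172078, minus strand): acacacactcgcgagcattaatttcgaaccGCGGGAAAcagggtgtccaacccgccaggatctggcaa
Rfc3 (chr5:151651209-151651248, minus strand): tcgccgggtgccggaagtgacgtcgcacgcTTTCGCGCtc
In Mcm5 and Mcm6 an E2F word on each strand overlaps into a run of 12 bases. An E2F match was found for 3 of the 8 genes with both HDAC4 KO libraries below the controls, 4 of the 8 above and 5 of the 12 with overlapping groups and a window. A match is a description of letters and was not tested as a binding site.

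Of the E2F activators, E2f1 stood at 19.3 and 20.0 FPKM in controls 3 and 4 and at 19.4 and 18.9 FPKM in the 2 HDAC4 KO libraries (3 and 4), and the groups overlapped. E2f1 lies on chromosome 2 (154559407 to 154569892, GRCm38). E2f2 (ENSMUSG00000018983, chromosome 4, 136172394 to 136196057, GRCm38), a second activator that drives G1/S genes, stood apart from it. As a percent of the control mean, E2f2 was 97.3 and 103 in controls 3 and 4 and 65.6 and 82.3 in the 2 HDAC4 KO libraries (3 and 4). Both HDAC4 KO libraries were below both controls, and the log2 difference was -0.43 ± 0.14 (SE, limma unadjusted p = 0.0304, adjusted p = 0.302). The log2 difference of E2f2 was -0.59 to -0.27 without 1 library. Its adjusted p ran from 0.172 to 0.734 over the 12 alternative settings, and HDAC4 KO 3 was the lower of the 2. Cdc25a encodes the phosphatase that activates CDK2 at G1/S, and its HDAC4 KO libraries were at 92.1% and 101% of the control mean, around both controls.

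Licensing factors were measured for Orc1, the largest subunit of the origin recognition complex, and for Cdc6. Orc1 (ENSMUSG00000028587, chromosome 4, 108579423 to 108614833, GRCm38) stood at 12.2 and 33.6 FPKM in controls 3 and 4 and at 14.4 and 13.9 FPKM in the 2 HDAC4 KO libraries (3 and 4). Control 4 was the single high library, and the other 3 lay between 12.2 and 14.4 FPKM. The log2 difference of -0.49 ± 0.47 (SE, limma adjusted p = 0.651) became 0.20 without control 4 and -1.19 without control 3. Cdc6 was at 102% and 98.0% of the control mean in controls 3 and 4 and at 84.5% and 92.6% in HDAC4 KO 3 and 4. Both HDAC4 KO libraries were thus lower, with a log2 difference of -0.17 ± 0.10 (SE, limma adjusted p = 0.480, log2 difference -0.23 to -0.11 without 1 library). For Cdt1, which brings MCM to the origin, the authors' pooled values were 101 FPKM in control and 109 FPKM in HDAC4 KO (108% of control), with no value per library. They were listed for chromosome 8 from 119910360 to 124345724, a span far wider than Cdt1 (122568015 to 122573554) that also held Gins2. Decimal points were set to bring the groups closest, which favours a ratio near 1. Pooled values differed from library means by a scale of 1.05 in control and 1.03 in HDAC4 KO. This percent is therefore not on the scale of the others.

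The MCM subunits, which form the helicase ring, spread only narrowly. Mcm3 was at 165 and 181 FPKM in controls 3 and 4 and at 193 and 195 FPKM in the 2 HDAC4 KO libraries (3 and 4). Mcm3 was thus higher in both HDAC4 KO libraries, by 0.16 ± 0.09 on the log2 scale (SE, limma adjusted p = 0.482, log2 difference 0.10 to 0.23 without 1 library). Mcm4 was between 69.6 and 76.0 FPKM and Mcm5 between 96.1 and 106 FPKM over the 4 libraries, with overlapping groups for both. On the FPKM scale, which is corrected for length, Mcm5 was 0.605 and 0.581 times the level of Mcm3 in controls 3 and 4 and 0.521 and 0.493 times in HDAC4 KO 3 and 4. Mcm4 was 0.460 and 0.384 times the level of Mcm3 in the controls and 0.378 and 0.389 times in HDAC4 KO, where the groups overlapped. These ratios were computed after the values were seen and were not tested. Mcm2 and Mcm6 had overlapping groups, with means in HDAC4 KO of 105% and 102% of the control mean. Mcm7 was at 95.7% and 104% of the control mean in the controls and at 109% and 107% in HDAC4 KO, a log2 difference of 0.11 ± 0.09 (SE). Mcm10, which joins the helicase as it is activated and is not part of the ring, was at 31.2 and 32.0 FPKM in the controls and at 29.6 and 30.3 FPKM in HDAC4 KO. Its groups did not overlap, and the mean of HDAC4 KO was 94.7% of the control mean.

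Of the helicase activators, Cdc45 (ENSMUSG00000000028, chromosome 16, 18780447 to 18811987, GRCm38) was among the genes with the smallest unadjusted p. It stood at 98.1% and 102% of the control mean in controls 3 and 4 and at 87.0% and 86.4% in HDAC4 KO 3 and 4. The HDAC4 KO libraries were close to each other and below both controls, with a log2 difference of -0.20 ± 0.08 (SE, limma unadjusted p = 0.0698, adjusted p = 0.382, log2 difference -0.23 to -0.17 without 1 library). Gins1, a subunit of the GINS complex, was at 109% and 91.1% of the control mean in the controls and at 120% and 107% in HDAC4 KO, with overlapping groups. For Gins2, another GINS subunit, the authors' pooled value in HDAC4 KO was 111% of that in control. This value was listed for the same wide span as Cdt1 and has the same limits.

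**Figure D2:**
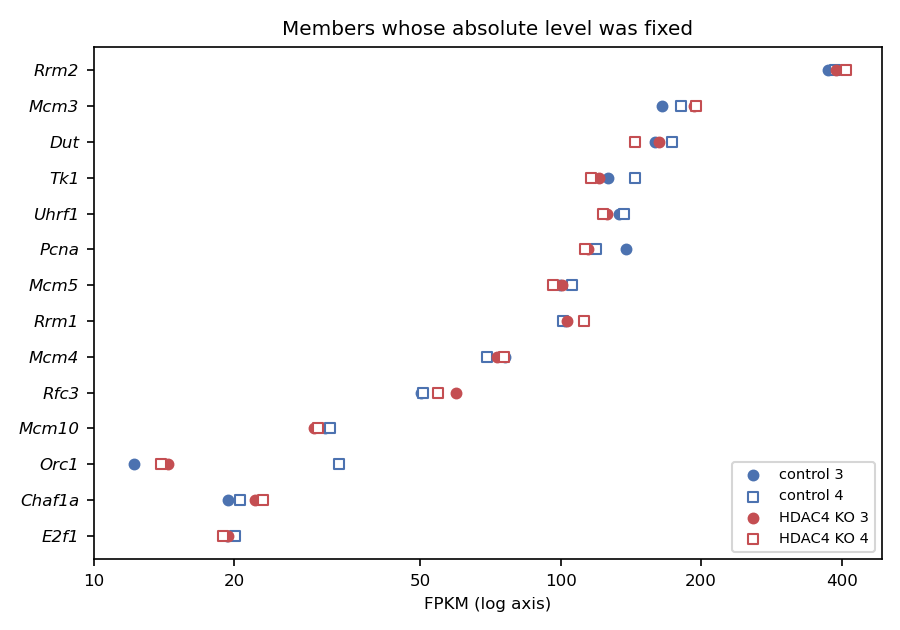
FPKM on a log axis for the 14 genes whose absolute level could be fixed, 1 symbol per library. Values ran from 12.2 FPKM (Orc1 in control 3) to 410 FPKM (Rrm2 in HDAC4 KO 4), and only Orc1 has a library far from the other 3.

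Among the polymerases and the clamp, Pcna, the sliding clamp that holds polymerases on DNA, was at 138 and 119 FPKM in controls 3 and 4 and at 115 and 113 FPKM in the 2 HDAC4 KO libraries (3 and 4). The HDAC4 KO libraries were lower, and the gap between the 2 controls exceeded the gap from control 4 to either HDAC4 KO library. The log2 difference was -0.17 ± 0.11 (SE, limma adjusted p = 0.515, log2 difference -0.28 to -0.067 without 1 library). Pola1, the catalytic subunit of polymerase alpha, was at 119% of the control mean in control 3 and 80.9% in control 4, which enclosed 91.6% and 86.8% in HDAC4 KO. Prim1, the primase that starts each new strand, and Pole, the catalytic subunit of the leading strand polymerase, had overlapping groups, with HDAC4 KO means of 108% and 101% of the control mean. The clamp loader subunit Rfc3 was at 50.3 and 50.7 FPKM in the controls and at 59.6 and 54.7 FPKM in HDAC4 KO 3 and 4. Rfc3 was higher in both HDAC4 KO libraries, by 0.17 ± 0.09 on the log2 scale (SE, limma adjusted p = 0.457, log2 difference 0.11 to 0.24 without 1 library). Rfc4, another clamp loader subunit, was at 106% and 93.6% in the controls and at 116% and 110% in HDAC4 KO.

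The enzymes that finish lagging strand fragments lay on opposite sides. Fen1, the flap endonuclease, was at 98.8% and 101% of the control mean in the controls and at 94.7% and 96.2% in HDAC4 KO. Lig1 (ENSMUSG00000056394, chromosome 7, 13277283 to 13311433, GRCm38), the ligase that seals the fragments, was at 95.7% and 104% of the control mean in the controls and at 116% in both HDAC4 KO libraries. Lig1 had the largest positive difference of the 31 genes, 0.21 ± 0.09 on the log2 scale (SE, limma unadjusted p = 0.0753, adjusted p = 0.391, log2 difference 0.15 to 0.27 without 1 library).

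Of the nucleotide supply genes, Rrm2, the limiting subunit of ribonucleotide reductase, had the highest level among the genes with a fixed level. It was at 375 and 387 FPKM in the controls and at 389 and 410 FPKM in HDAC4 KO 3 and 4, and HDAC4 KO 3 exceeded control 4 by under 2 FPKM. The sign of its log2 difference of 0.067 turned with quantile normalization (-0.054). Rrm1, the large subunit, was at 102 and 101 FPKM in the controls and at 103 and 112 FPKM in HDAC4 KO. Tk1, the thymidine kinase of S phase, was at 126 and 144 FPKM in controls 3 and 4 and at 121 and 116 FPKM in the 2 HDAC4 KO libraries (3 and 4). Both HDAC4 KO libraries of Tk1 were below both controls, with a log2 difference of -0.19 ± 0.11 (SE, limma adjusted p = 0.483, log2 difference -0.28 to -0.088 without 1 library). Dut, which removes dUTP, was at 159 and 174 FPKM in the controls and at 163 and 144 FPKM in HDAC4 KO, with overlapping groups. Tyms, the thymidylate synthase, was at 106% and 96.4% of the control mean in HDAC4 KO 3 and 4, around both controls.

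Of the genes for chromatin assembly behind the fork, Uhrf1, which recognises newly copied methylated DNA, was at 133 and 137 FPKM in the controls and at 126 and 123 FPKM in HDAC4 KO. The HDAC4 KO libraries were lower, with a log2 difference of -0.12 ± 0.08 (SE, limma adjusted p = 0.541, log2 difference -0.14 to -0.10 without 1 library). Chaf1a and Chaf1b encode subunits of chromatin assembly factor 1, which places histones on new DNA. Chaf1a was at 19.4 and 20.5 FPKM in the controls and at 22.1 and 23.0 FPKM in HDAC4 KO, higher by 0.17 ± 0.09 on the log2 scale (SE, limma adjusted p = 0.467, log2 difference 0.13 to 0.21 without 1 library). Chaf1b was at 91.4% and 109% of the control mean in the controls and at 99.0% and 98.8% in HDAC4 KO, and so lay between the controls. Slbp, which binds the stem loop of histone mRNA, had overlapping groups, with a mean in HDAC4 KO of 105% of the control mean. Exons of 11 of the 33 genes, among them Cdc45, Tk1, Rfc4, Fen1, Lig1, Mcm7, Chaf1a and Orc1, overlap a gene model on the opposite strand. The library kit marks strand, but the counting settings are not given in the sources used here, so reads of such pairs may have been mixed.

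**Figure D3:**
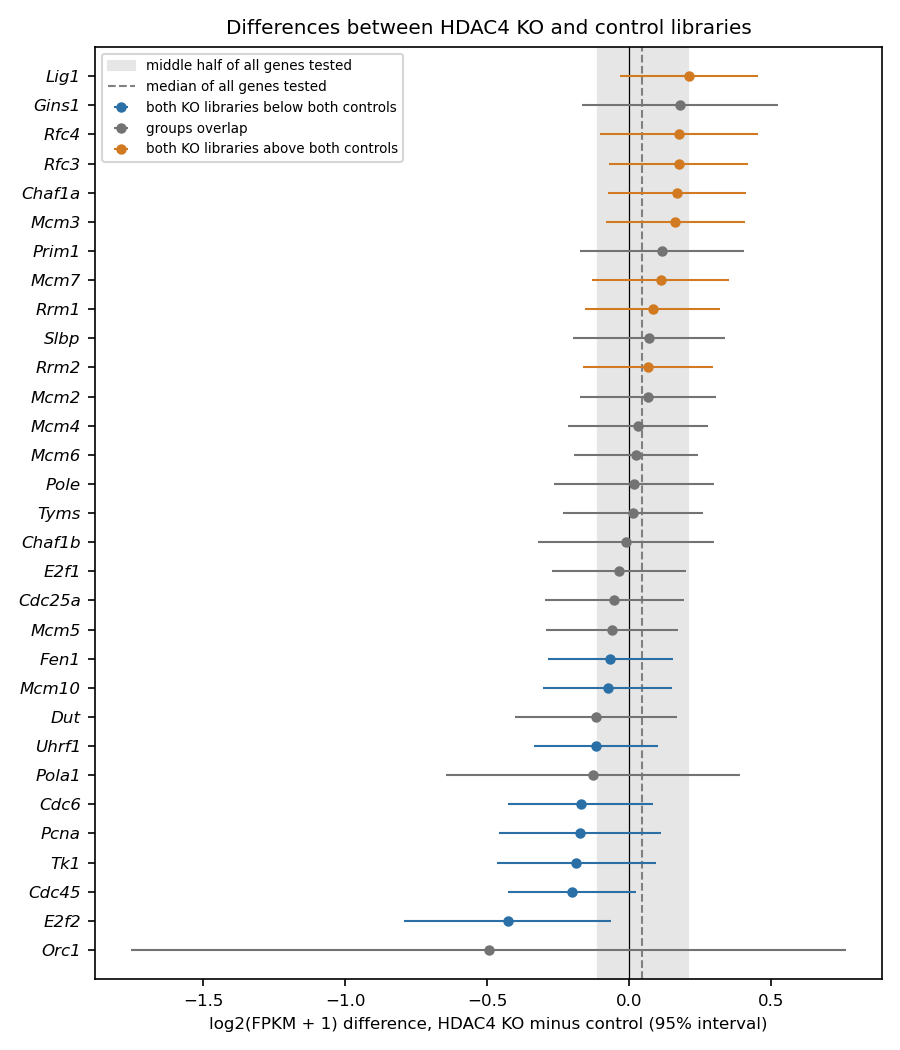
Each point is the log2(FPKM + 1) difference of 1 gene, HDAC4 KO minus control, with its 95% interval from limma; colours give whether the groups overlap, the grey band is the interquartile range of all genes tested and the dashed line their median of 0.044. The interval of E2f2 alone leaves out 0, before adjustment for the number of genes.

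Among other cell cycle genes, no gene of 7 related lists had an adjusted p under 0.05 in limma. Above and below 0 were 7 and 12 licensing and firing genes, and 13 and 10 polymerase and fork genes. They were 6 and 9 for nucleotide supply, 4 and 9 for chromatin, and 5 and 10 for E2F and pocket proteins. Of all genes tested, 57.5% were above 0. In turn, both HDAC4 KO libraries lay above both controls for 15.8%, 30.4%, 13.3%, 23.1% and 6.67%, beside 30.9% of all genes tested. Both lay below for 15.8%, 30.4%, 26.7%, 15.4% and 20.0%, beside 17.7%. Over all genes tested, 10.8% were higher and 3.67% lower at an unadjusted p under 0.05 in limma. In the list of other origin licensing and firing genes, 19 of 19 were tested and 0 had an unadjusted p under 0.05, with a median log2 difference of -0.034. Cdc7, the kinase that fires licensed origins, was at 105% and 94.7% of the control mean in the controls and at 67.1% and 83.4% in HDAC4 KO (limma unadjusted p = 0.0505, adjusted p = 0.346). In HDAC4 KO, Mcmbp, which binds MCM proteins, was at 86.1% and 86.5% of the control mean, Gins4 at 118% and 107% and Orc6 at 111% and 110%. In the list of other polymerase, clamp loader and fork genes, 23 of 23 were tested, with 1 higher and 2 lower at an unadjusted p under 0.05 and a median of 0.043. Chtf18, a subunit of an alternative clamp loader, was at 25.3 and 26.7 FPKM in the controls and at 20.8 and 20.0 FPKM in HDAC4 KO (limma adjusted p = 0.265). Pold1, the catalytic subunit of polymerase delta, was at 80.5% of the control mean in both HDAC4 KO libraries. Pole3, a subunit of polymerase epsilon, was at 143% and 120%, and Clspn, which signals stalled forks, was at 116% and 133%. Among other nucleotide supply genes, 0 of 15 had an unadjusted p under 0.05, and the median was -0.037. In HDAC4 KO, Dck was at 80.2% and 89.6% of the control mean, Umps at 92.1% and 89.4%, Samhd1 at 116% and 109% and Tk2 at 110% and 107%. Among other replication-coupled chromatin genes, 0 of 13 did, and the median was -0.053. Npat was at 73.5% and 67.9% of the control mean in HDAC4 KO and Cdca7 at 92.2% and 90.1%. Nasp was at 95.9 and 76.9 FPKM in the controls and at 104 and 101 FPKM in HDAC4 KO, and Rbbp7 at 175 and 161 FPKM and at 181 and 194 FPKM. Of 15 other E2F and pocket protein genes tested, only E2f4, which acts mainly in repressor complexes, did (84.5% and 81.2% of the control mean in HDAC4 KO, unadjusted p = 0.0379, adjusted p = 0.321 in limma), and the median was -0.025. In HDAC4 KO, Rbl1 was at 77.9% and 85.9% of the control mean, E2f6 at 107% and 110% and Lin37 at 127% and 97.0%.

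The cyclins, kinases and inhibitors that act upstream of these genes spread more widely. Of 18 tested, 2 were higher and 4 lower at an unadjusted p under 0.05 in limma, beside 10.8% higher and 3.67% lower of all genes tested. Of the 18, 0 had an adjusted p under 0.05, and the difference was above 0 for 5 and below 0 for 13. Both HDAC4 KO libraries lay above both controls for 3 (16.7%, beside 30.9% of all genes tested) and below both for 5 (27.8%, beside 17.7%). Cdkn1a, the inhibitor p21, was at 271 and 351 FPKM in the controls and at 441 and 516 FPKM in HDAC4 KO, higher in both by 0.63 ± 0.17 on the log2 scale (SE, limma adjusted p = 0.263). Cdkn1b, the inhibitor p27, was at 100% and 99.8% of the control mean in the controls and at 59.5% and 67.4% in HDAC4 KO, and the log2 difference was -0.59 ± 0.11 (SE, limma adjusted p = 0.204). Ccne1, which encodes cyclin E1, was between 46.4 and 51.6 FPKM over the 4 libraries with overlapping groups. Ccna2, which encodes the S phase cyclin A2, was at 106% and 93.9% of the control mean in the controls and at 79.4% and 83.2% in HDAC4 KO (limma unadjusted p = 0.0394, adjusted p = 0.322). Skp2, which marks p27 for breakdown, was at 72.7% and 80.6% of the control mean in HDAC4 KO. Ccnd2, which encodes cyclin D2, was at 145% and 149% of the control mean in HDAC4 KO. Of 28 G2/M genes, 0 had an unadjusted p under 0.05 in limma, and the median was -0.059. The difference was above 0 for 7 and below 0 for 21. Both HDAC4 KO libraries lay below both controls for 12 (42.9%, beside 17.7% of all genes tested) and above both for 4 (14.3%, beside 30.9%). Ube2c was at 268 and 299 FPKM in the controls and at 246 and 235 FPKM in HDAC4 KO, and Mad2l1 at 106 and 98.5 FPKM and at 93.7 and 79.4 FPKM. Tpx2 was at 113% and 119% of the control mean in HDAC4 KO and Cdca8 at 120% and 109%.

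**Figure D4:**
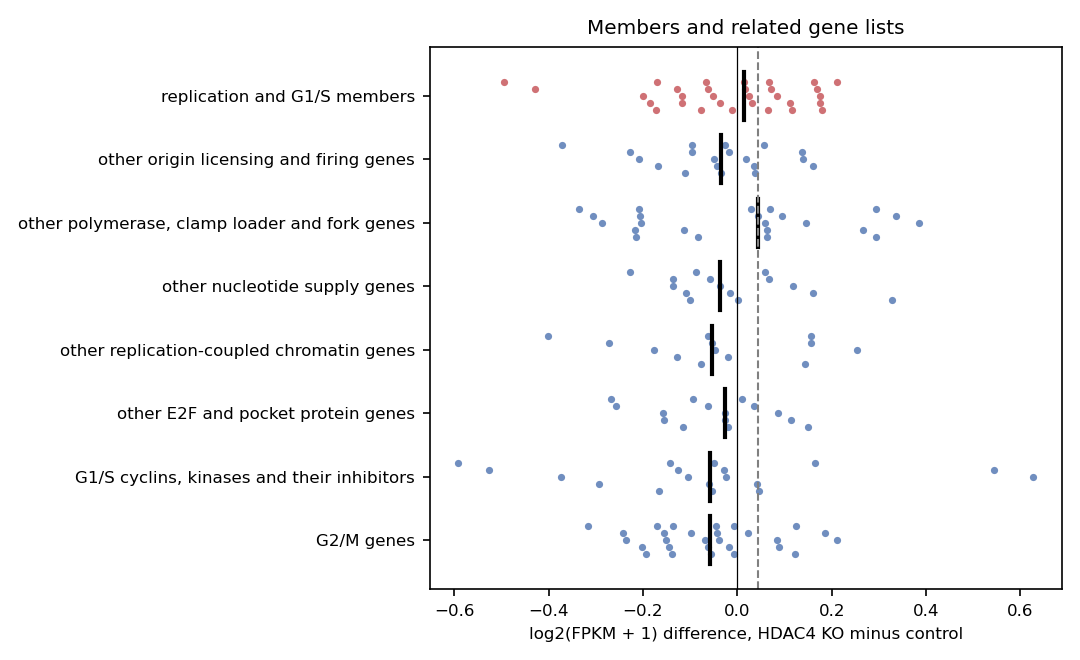
Log2(FPKM + 1) differences, HDAC4 KO minus control, of the replication and G1/S genes (red) and of 7 related lists (blue), 1 point per gene, with a black bar at each list's median and a dashed line at the median of all genes tested. All medians lie between -0.059 and 0.043, and the list with cyclins, kinases and inhibitors holds the points farthest from 0 on both sides.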

How the data were processed

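RNA sequencing libraries (TruSeq Stranded mRNA, single-end) of 2 control and 2 HDAC4 KO samples were analysed. Per the submitters' processing notes, CASAVA 1.8.2, cutadapt, TopHat, Cufflinks and Cuffdiff were used with GRCm38. For each library, the authors deposited 1 table of FPKM by gene with confidence bounds, and for the groups a table of pooled FPKM. That table also holds the authors' fold changes and tests, which were not used.

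Most deposited values of 1 or more had lost their decimal point (11652 to 11900 entries per library). It was restored where the value lay midway between its bounds (tolerance 4e-05) and gave the pooled value (tolerance 0.02, log2), otherwise by the width of the bounds and the spread between libraries. The ratio between the groups was hidden for 135 genes with a single possible reading in every library, by shifting both HDAC4 KO libraries together. It was found for 134 of them. Ratios between single libraries were not hidden, and the score itself favours a small spread between libraries. A power of 10 common to all libraries was open for 17 of the 31 genes, which are given in percent of the control mean, and it was right in 81.3% of hidden cases. An open level acts on a log2 difference only through the pseudocount and the filter. The test also fits the spread against the level, so an open level acts on the SE, interval and p as well. Dut was listed at 2 places and kept at the pooled table's locus. The depth is unknown from FPKM, so no counting interval is given.

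Genes averaging at least 1 FPKM were tested on log2(FPKM + 1) with limma 3.58.1 (trend) in R 4.3.3, with Benjamini-Hochberg adjustment over all genes. Simulated data with a common spread for every gene were used to check the estimated difference. They cannot show how well genes are called when spreads differ between genes. A log2 difference on this scale understates changes of low genes. An exact permutation test of 2 against 2 cannot go below p = 0.333. The 33 genes, their roles and all lists were chosen with earlier results of these data known. Named genes are all 33, from each related list the lower 2 and the higher 2 by p, Ccne1, Ccna2, Cdkn1a and Hdac4. Of the marker lists, the rule took the highest genes and defining genes at 0, and other markers were named after their values were seen. RefSeq promoters were searched for motifs. Alternatives were another pseudocount, 3 filters, 2 scalings, no trend, a replicate block and leaving out each library.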

Additional observations from a re-analysis of the deposited data

How the results depend on the processing

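None of the 31 genes was called under any of the 12 alternatives, and their smallest adjusted p was 0.172. The number of all genes called, 2 in the reported fit, was 1 with a pseudocount of 0.1, 1 with no filter, 5 at a mean of at least 5 FPKM, 80 with protein-coding genes only, 4 with quantile normalization, 11 with no trend and 0 to 66 when 1 library was left out. The median log2 difference of the replication genes, 0.015 in the reported fit, stood beside 0.044 over all genes tested. It was -0.042 with median-ratio scaling, beside -0.0079 over all genes tested, and -0.054 with quantile normalization, beside -0.0090. Without 1 library it was -0.0092 to 0.019, beside 0.041 to 0.052. Genes with both HDAC4 KO libraries lower numbered 13 with median-ratio scaling (24.3% of all genes) and 10 to 13 without 1 library (26.9% to 33.1%), and genes with both higher 4 with median-ratio scaling (24.2%), 3 with quantile normalization (23.7%) and 11 to 13 without 1 library (42.7% to 46.2%). The sign turned with median-ratio scaling for Mcm4 (-0.025), Mcm6 (-0.033), Pole (-0.037) and Tyms (-0.042), and with quantile normalization for Mcm4 (-0.027), Mcm6 (-0.037), Pole (-0.030), Tyms (-0.035) and Rrm2 (-0.054). Leaving out 1 library gave -0.12 to 0.015 for Cdc25a, -0.13 to 0.11 for Chaf1b, -0.031 to 0.094 for Mcm4, -1.19 to 0.20 for Orc1, -0.38 to 0.13 for Pola1, -0.075 to 0.11 for Pole and -0.052 to 0.082 for Tyms. The cause was not tested. The other 22 genes kept their sign throughout. Deviations of same-numbered libraries from their group means had a correlation of -0.067. With 2 libraries a group this is a single value, which cannot show whether samples were prepared as pairs. With the replicate block 3 genes were called, 0 of them replication genes. With 2 libraries a group and no counts, small differences cannot be resolved, and some large ones were not called either. In limma over all genes, Hdac4 with a log2 difference of -1.13 had an adjusted p of 0.202 (0.0427 over protein-coding genes alone). Cdkn1a with a log2 difference of 0.63 had an adjusted p of 0.263 in limma.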
